A study of Mus musculus with 16 samples.

Results

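The step from the pre-pro-B to the pro-B stage was compared between fetal and adult B-cell development, gene by gene, as the difference between 2 differences. For every gene the change from fraction A (Fr.A) to fraction B/C (Fr.B/C) in bone marrow was subtracted from the same change in fetal liver, and the result is called the interaction here. A positive interaction means that the gene rose more, or fell less, in fetal liver. Of 22091 genes and unnamed transcripts tested, 1623 had an interaction that passed the test (7.35% of those tested), and these are the genes described. The tissues are not tested against each other at a single stage, and levels at a stage are given only to describe the step. Genes that take the step alike in both are left aside, apart from some given for comparison.

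Cells came from BALB/c mice without any other genotype or treatment stated. Each of 4 bone marrow sorts pooled 16 adult female mice, each of 4 fetal liver sorts pooled the livers of a litter at day 16 of gestation, on average 8 embryos, and from every sort came a pair of samples, one for each fraction. The 16 samples were hybridised to 2-colour arrays against a reference RNA from 6 cell lines, so that each value is a log2 ratio of sample over reference. The sample was in Cy5 on arrays 1 and 3 of a group and in Cy3 on arrays 2 and 4. In the Hardy scheme both fractions are sorted by surface markers, Fr.A holding the earliest B-lineage progenitors and Fr.B/C the pro-B cells, so a fraction can hold cells of other lineages. In bulk samples of this kind, fewer cells of a type and less RNA per cell cannot be told apart.

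As background, pro-B cells are the stage at which the immunoglobulin heavy chain locus is rearranged, under control of the transcription factors E2A, EBF1 and PAX5 and of interleukin 7, whose receptor signals through JAK kinases and STAT5. Cells with a rearranged heavy chain then assemble the pre-B-cell receptor (pre-BCR). Fetal and adult progenitors follow the same path, but the fetal cells use a program governed by the RNA-binding protein Lin28b, are known to depend less on some adult signals, and add few nucleotides at V(D)J junctions. The series title places Lin28b and the transcription factor Arid3a in fetal B lymphopoiesis.

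As a check of the labelled stages, the surrogate light chain gene Vpreb1, a pro-B gene, rose by 1.37 (bone marrow) and 1.38 (fetal liver) in log2 units (interaction 0.01, adjusted p = 0.992). Vpreb1 fell outside the rule for named genes and checks only the direction of the step. The list of B-lineage specification genes rose by medians of 1.34 in bone marrow and 1.06 in fetal liver. Median sample intensities lay between 71.2 and 162 per array, and 53% to 68.4% of probes were well above background. No scan session held both tissues, but Fr.A and Fr.B/C of a sort were scanned together in 7 of the 8 sorts. The exception was bone marrow sort 1.

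Across genes the changes of both tissues went together (Pearson r = 0.728 over 22091 genes, which are not independent replicates). In bone marrow 2980 genes rose (13.5%) and 4137 fell (18.7%) from Fr.A to Fr.B/C, and in fetal liver 2198 rose (9.95%) and 2807 fell (12.7%). The interaction was higher in fetal liver for 967 genes (4.38%) and lower for 656 (2.97%), and it was at least 2-fold for 266 and 192 of them. In 1587 of the 1623 the 4 fetal liver sorts did not overlap the 4 bone marrow sorts, a state found in 20.6% of all genes tested. The same arrays gave the test, so this follows in part from the choice of genes. The median interaction over all genes was 0.04.

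How many genes passed depended on what counts as a replicate. With the sort as a replicate block, 3595 genes passed, all 1623 among them. Arrays 1 and 2 of a group, and arrays 3 and 4, deviated together from their group's mean in all sets except arrays 1 and 2 of fetal liver Fr.A (correlations from -0.0494 to 0.768). The labels do not say that such arrays share RNA, so p-values measure the spread between these arrays, which may be partly technical. In fetal liver, arrays 1 and 2 of both fractions shared a scan session, and arrays 3 and 4 shared another. Set and scan session thus cannot be told apart in that tissue. With both arrays of such a set averaged, which leaves 2 values per group, 43 genes passed, all among the 1623. Without bone marrow sort 3 or 4 the count was 1011 or 1080, and without fetal liver sort 3 or 4 it was 951 or 945. Of the genes named in this text, Ccnd1, Ccr6, Cd163, Cd6, Chdh, Cpne2, Csf1r, Ctsw, Fcmr, Gimap6, Igf2bp2, Il18r1, Nkx6-2, P2ry12, Ppp3cc, Rab19, Rab6b, Rasgrp3, Rnd3, Robo4 and Rpl39l kept their call with the sets averaged. In the lists of interleukin 7 and TSLP signalling, V(D)J recombination, immunoglobulin, MHC class II, interferon response and plasmacytoid dendritic cell genes 0 members passed limma's test in that fit.

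**Figure D1:**
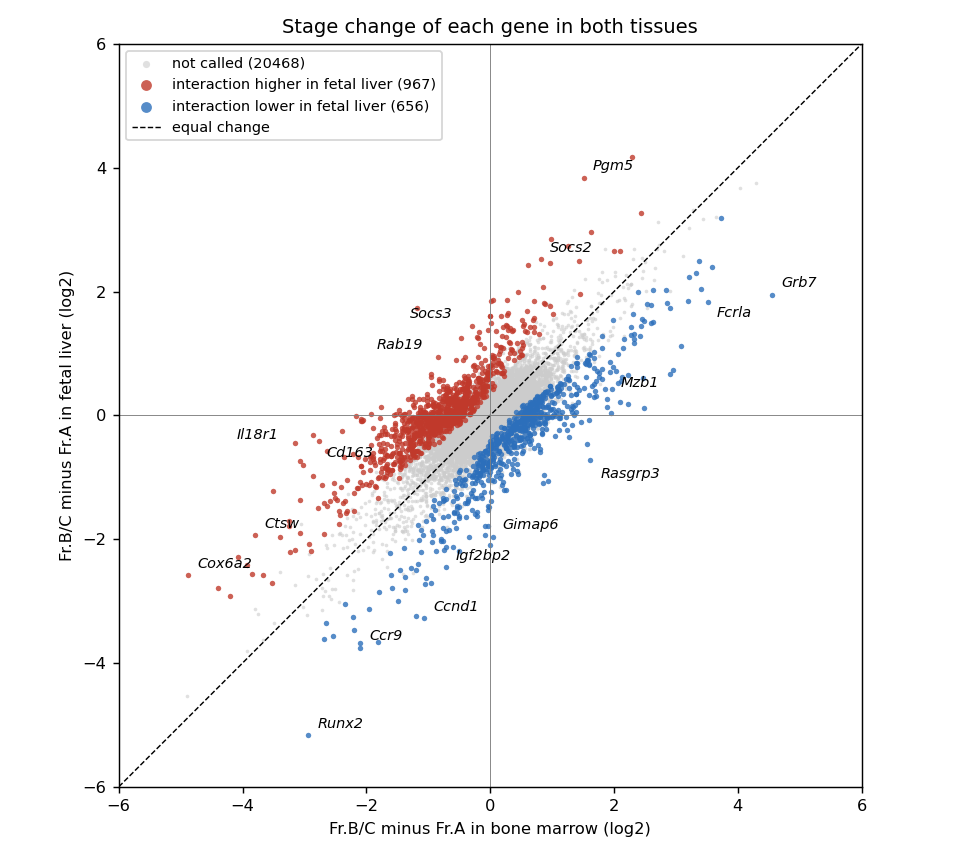
Change from Fr.A to Fr.B/C of every tested gene in bone marrow (horizontal axis) and fetal liver (vertical axis), both as log2 differences. Red and blue points are the 967 and 656 genes whose interaction was higher or lower in fetal liver, grey points the others, and the dashed line marks equal change.

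The largest class consisted of genes that fell in bone marrow and had no called change in fetal liver. Of the 1623 genes, 528 (32.5%) were of this kind, and their median changes were -0.77 and -0.01. The mirror class, 245 genes that rose in bone marrow alone, had medians of 0.67 and -0.03. Fetal liver alone moved 166 genes down and 135 up. Where both tissues moved a gene the same way, the step was larger in bone marrow for 202 falling and 113 rising genes and larger in fetal liver for 98 and 46. In 69 genes the directions were opposite, 41 of them falling in bone marrow and rising in fetal liver, and 28 the reverse. The change was smaller in fetal liver in 1125 of the 1623. This share was not counted over all genes tested, where changes were also more spread in bone marrow. Their standard deviation was 0.523 in bone marrow and 0.456 in fetal liver.

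**Figure D2:**
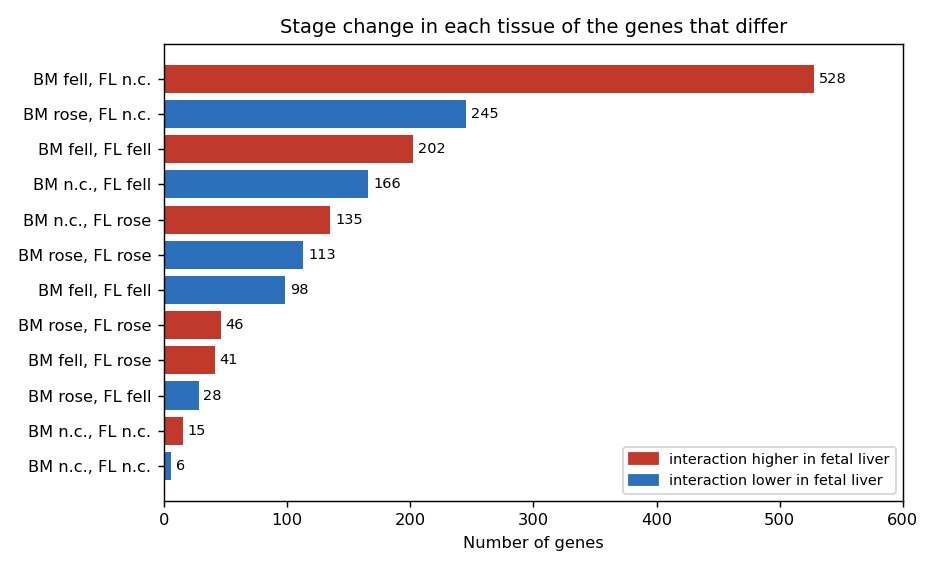
Number of genes in each class of the 1623, by whether the gene rose, fell or was not called (n.c.) between Fr.A and Fr.B/C in bone marrow (BM) and fetal liver (FL). The longest bar is the 528 genes that fell in bone marrow alone, and the 69 genes of opposite direction are the bars of 41 and 28.

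The gap between the tissues before and after the step is given as a description of these genes. Among the 967 genes with a higher interaction, fetal liver was below bone marrow in Fr.A (median -0.66) and close to it in Fr.B/C (0.12). The 656 genes with a lower interaction went from a median of 0.21 to -0.54. The gap changed sign in 43.7% and 46% of these genes, against 31.3% of all genes tested. Since the interaction is the difference of both gaps, the direction in which the medians moved follows from the choice of genes. The shares with a changed sign follow from it in part. Most of the called genes were measured well above background throughout, 786 of the 967 and 536 of the 656 on all 16 arrays. In 66 and 37 genes no fetal liver Fr.B/C array was above background, so that where such a gene fell in fetal liver the fall is a lower bound.

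Socs2, Socs3 and Cish, which are among the called members of the interleukin 7 and TSLP list, rose more steeply in fetal liver. They encode suppressors of JAK and STAT signalling whose own genes are induced by STAT proteins. In bone marrow Fr.A the log2 ratios of Socs2 on arrays 1 to 4 were -0.29, -0.16, 0.10 and 0.17, and in Fr.B/C they were 0.55, 0.67, 0.88 and 0.98. In fetal liver they went from -0.89, -0.94, -1.04 and -1.04 to 1.61, 1.66 and 1.41, with no usable value on array 3. Fetal liver was thus the lower tissue in Fr.A and the higher in Fr.B/C, with no overlap at either stage. The step was 0.82 ± 0.12 in bone marrow and 2.53 ± 0.13 in fetal liver (model standard error, SE), an interaction of 1.71 ± 0.18 (adjusted p = 4.32e-05).

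Socs3 showed no called change in bone marrow, where its ratios were -0.17, -0.29, 0.41 and 0.31 in Fr.A and -0.37, -0.56, -0.09 and 0.08 in Fr.B/C. In fetal liver it went from 0.22, 0.10, 0.08 and 0.04 to 1.43, 1.32, 1.82 and 1.66, so that every fetal pro-B array exceeded every other array. Its interaction was 1.74 ± 0.24 (adjusted p = 0.000311). Cish was level in bone marrow (-0.01 ± 0.18) and rose by 1.61 ± 0.18 in fetal liver, from a range of -0.26 to -0.11 up to a range of 1.07 to 1.77. All fetal Fr.A arrays lay below all bone marrow Fr.A arrays (1.74 to 2.05), while in Fr.B/C the ranges overlapped (1.45 to 2.35 in bone marrow). The interaction of Cish was 1.62 ± 0.26 (adjusted p = 0.00116).

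The start-site regions of Cish and Socs3 are shown because STAT proteins bind the paired half-sites TTC and GAA set 3 bases apart. For Socs2 no promoter was available. RefSeq promoter windows (build GRCm38.p6, 250 bases before to 50 after the start site) were searched on both strands for TTCNNNGAA, a motif chosen after the values of these genes had been seen. Capitals mark the matches within the printed stretches, which are parts of the windows. Any match elsewhere in a window is not shown. The Cish stretch lies at chr9:107296559-107296678 on the plus strand and holds 2 matches, the first bases of which are 1 and 12 bases into the transcript. The Socs3 stretch lies at chr11:117969447-117969566 on the minus strand and holds 1 match, whose first base is at position -154 from the start site.
Cish: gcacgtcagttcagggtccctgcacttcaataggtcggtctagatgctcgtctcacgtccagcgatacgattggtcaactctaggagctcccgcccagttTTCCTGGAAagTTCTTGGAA
Socs3: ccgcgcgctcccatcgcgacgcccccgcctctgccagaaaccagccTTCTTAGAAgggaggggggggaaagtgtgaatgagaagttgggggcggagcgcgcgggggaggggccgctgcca
A match is a description of the letters and not a binding site. Of the genes with a higher interaction, 429 had a promoter in the table and 8.62% of these held the motif, against 9.09% of 396 genes with a lower interaction and 8.7% of 11173 tested genes. These shares lie close to each other and were not tested.

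The rest of the interleukin 7 and TSLP pathway moved less. Of 20 members tested, 5 had a higher interaction and 1 a lower, with a median of 0.31. The median over all genes was 0.04, and 4.38% were higher and 2.97% lower. Beside the 3 feedback genes, the survival kinase gene Pim1 fell by 0.42 in bone marrow and rose by 0.51 ± 0.12 in fetal liver (interaction 0.93 ± 0.16, adjusted p = 0.00248). Pik3r1, a regulatory subunit of PI3-kinase, fell less in fetal liver (-0.91 against -1.67; adjusted p = 0.00729). The member with a lower interaction was the common gamma chain Il2rg, which rose by 0.48 in bone marrow and fell by 0.40 in fetal liver (-0.88 ± 0.18, adjusted p = 0.00714). The receptor chain Il7r itself did not pass (-0.16 ± 0.28, adjusted p = 0.803, n = 4 bone marrow and 3 fetal liver sorts), nor did Stat5a (0.18, adjusted p = 0.705) or Stat5b (0.54, adjusted p = 0.121). Pik3r1 and Il2rg, the remaining called members of the list, fell outside the rule for named genes, as did Stat5a and Stat5b, and were chosen after their values were seen.

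**Figure D3:**
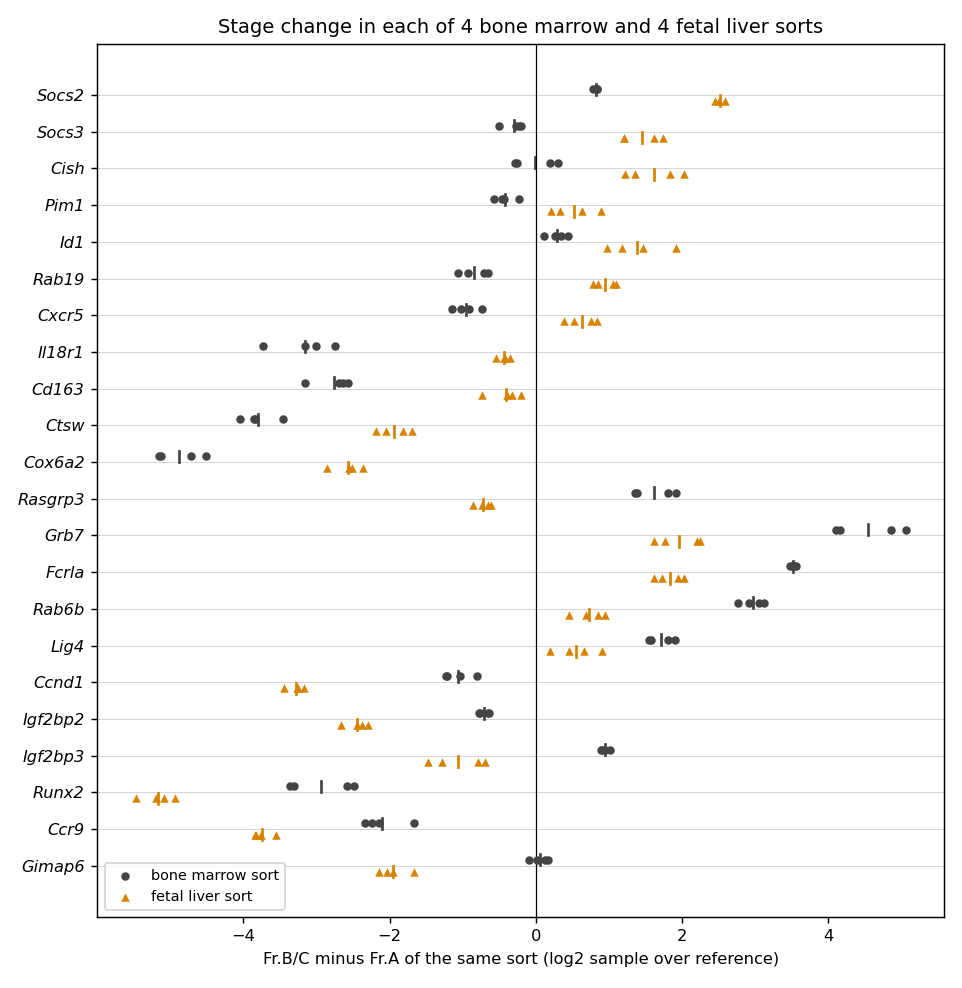
Fr.B/C minus Fr.A in log2 units for each sort, 4 bone marrow sorts (circles) and 4 fetal liver sorts (triangles, 3 for Socs2), with a vertical bar at the mean of each tissue. In all 22 genes shown the sorts of both tissues do not overlap, for example 0.78 to 0.84 against 2.45 to 2.59 for Socs2. All 22 had passed the interaction test, and part of them were named for not overlapping. The lack of overlap thus follows in part from the choice of genes.

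The B-lineage genes that passed all had a lower interaction. Of 28 B-lineage specification genes tested, 5 had a lower interaction and none a higher, with a median of -0.37. The list rose in both tissues (22 members in bone marrow and 19 in fetal liver), at median changes of 1.34 and 1.06. Of all genes tested, 13.5% rose in bone marrow and 9.95% in fetal liver. Over all genes tested, 2.97% had a lower and 4.38% a higher interaction. With the sort as a replicate block 10 members were lower and 2 higher, against 1621 and 1974 of all 22091 genes. With the array sets averaged 1 member was lower and none higher. The transcription factor Ebf1 rose in both tissues (0.97 ± 0.12 and 0.54 ± 0.12), and its interaction did not pass (-0.43 ± 0.18, adjusted p = 0.175). Of Pax5 no probe was kept.

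Rasgrp3, an activator of Ras downstream of the B-cell receptor, moved in opposite directions. Its bone marrow ratios were 0.69, 0.84, 0.40 and 0.55 in Fr.A and 2.04, 2.22, 2.19 and 2.46 in Fr.B/C, while fetal liver went from 1.42, 1.51, 1.64 and 1.90 down to 0.67, 0.87, 1.01 and 1.04. The higher tissue was fetal liver in Fr.A and bone marrow in Fr.B/C, on every array. The changes of 1.61 ± 0.12 and -0.72 ± 0.12 gave an interaction of -2.33 ± 0.16 (adjusted p = 2.69e-06). Fcrla, an intracellular Fc receptor-like protein of B cells, went from a range of -2.61 to -2.19 up to 0.92 to 1.31 in bone marrow and from -1.87 to -1.34 up to 0.07 to 0.37 in fetal liver. It rose in both tissues, by 3.47 to 3.56 over the bone marrow sorts and by 1.62 to 2.03 over the fetal liver sorts (interaction -1.69 ± 0.18, adjusted p = 3.42e-05).

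The other members of that list with a lower interaction were 2 transcription factors and a surrogate light chain gene. Spib, an Ets factor of B and plasmacytoid dendritic cells, rose by 3.21 ± 0.12 and 2.24 ± 0.13 (interaction -0.96 ± 0.17, adjusted p = 0.00343, 3 fetal liver sorts). Irf4, which acts in pre-B-cell differentiation, rose by 2.30 ± 0.09 and 1.63 ± 0.09 (-0.68 ± 0.13, adjusted p = 0.00371). Vpreb2, outside the rule for named genes and chosen after its values were seen, rose by 2.59 and 1.78 and passed narrowly (-0.81 ± 0.24, adjusted p = 0.0492).

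Pre-BCR signalling genes gave 6 lower and 0 higher interactions among 24 tested (2.97% and 4.38% of all genes tested), with a median of -0.33. With the array sets averaged 1 of the 6, Rasgrp3, passed. Beside Rasgrp3 they were the PI3-kinase adaptor Pik3ap1 (1.32 in bone marrow and 0.06 in fetal liver, interaction -1.27 ± 0.23, adjusted p = 0.00361), the protein kinase Prkcb (1.67 and 0.92, interaction -0.76 ± 0.15, adjusted p = 0.00643), the guanine nucleotide exchange factor Vav3 (0.27 and -0.52, interaction -0.79 ± 0.15, adjusted p = 0.00349) and the kinases Syk and Lyn. The second probe of Pik3ap1 gave an interaction of 0.08, so the gene's direction rests on 1 probe, and the second probe of Prkcb gave -0.37. Syk rose by 0.84 in bone marrow, with 0.15 in fetal liver, and Lyn by 0.57, with -0.24 (interactions -0.69 and -0.81, adjusted p = 0.0317 and 0.00932). Both were named after their values were seen, and the fetal change of neither was called. On the arrays the mean of the 24 genes rose in bone marrow, from 0.23 to 0.30 in Fr.A to 0.52 to 0.55 in Fr.B/C, and stayed in fetal liver at 0.01 to 0.13 and then -0.02 to 0.01.

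Genes of V(D)J recombination and of end joining gave 3 lower and 0 higher interactions among 16 tested (median -0.35). The shares over all genes tested were 2.97% and 4.38%. Lig4, the ligase of nonhomologous end joining, rose by 1.71 ± 0.20 in bone marrow, while its change of 0.56 ± 0.20 in fetal liver was not called (interaction -1.15 ± 0.28, adjusted p = 0.0205). Its call was lost without fetal liver sort 3 (-1.03, adjusted p = 0.0519) or 4 (-1.12, adjusted p = 0.0737). The Ku subunit gene Xrcc6 rose by 0.87 ± 0.15 in bone marrow and had -0.13 ± 0.15 in fetal liver (interaction SE 0.22, adjusted p = 0.00979). The polymerase gene Polm passed narrowly (-0.47 ± 0.13, adjusted p = 0.0387), and its call was lost in 19 of the 24 fits without an array or a sort, at an adjusted p of up to 0.116. Neither subunit of the recombinase passed, with -0.41 ± 0.18 for Rag1 (adjusted p = 0.207) and -0.37 ± 0.14 for Rag2 (adjusted p = 0.154). Each stayed uncalled in 43 of the 46 other fits and passed limma's test in the rest (lowest adjusted p = 0.00178 and 0.0108). Dntt, whose terminal transferase adds the junctional nucleotides, had a large difference in level between tissues but an interaction of only -0.22 ± 0.62 (adjusted p = 0.89, 3 bone marrow sorts), and all bone marrow arrays had its probe saturated.

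Several genes of less known role in this lineage rose steeply in bone marrow pro-B cells. Grb7, an adaptor of receptor tyrosine kinases, had the lowest interaction of the named genes. Its ratios went from -2.92, -3.21, -1.92 and -2.02 to 1.93, 1.85, 2.19 and 2.14 in bone marrow, and from -3.71, -3.71, -3.85 and -3.90 to -1.95, -2.09, -1.61 and -1.71 in fetal liver. It rose in both tissues, but fetal pro-B arrays reached no higher than -1.61, near the top of the bone marrow Fr.A range. The changes were 4.55 ± 0.23 and 1.95 ± 0.23 (interaction -2.59 ± 0.32, adjusted p = 0.000147). Rab6b, a small GTPase of vesicle traffic, rose by 2.96 ± 0.12 and 0.74 ± 0.12 (adjusted p = 2.89e-06), and the metalloproteinase Adamts7 by 2.90 ± 0.17 and 0.67 ± 0.17 (adjusted p = 3.98e-05).

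Fcmr, Ifnlr1 and Tnfrsf19 are 3 unrelated receptor genes with a lower interaction. Fcmr, an Fc receptor for IgM, rose by 1.95 ± 0.09 in bone marrow, while in fetal liver it stayed near background (well above it on 2 of 4 Fr.A arrays and no Fr.B/C array), so no fetal fold is given. Ifnlr1, a chain of the interferon lambda receptor, rose by 2.23 ± 0.16 in bone marrow, and its 0.19 ± 0.16 in fetal liver was not called (interaction -2.04 ± 0.23, adjusted p = 6.4e-05). It was well above background on only 2 of 4 fetal Fr.A arrays. The TNF receptor family gene Tnfrsf19 rose in both (3.09 and 1.12, interaction -1.97 ± 0.20, adjusted p = 3.31e-05). Among transcription factors, the Notch target Hes1 rose by 1.57 ± 0.22 in bone marrow alone, and its fetal sorts split into 0.24 and 0.18 for sorts 1 and 2 and -1.34 and -0.95 for sorts 3 and 4 (interaction -2.03 ± 0.32, adjusted p = 0.000969).

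Immunoglobulin and plasma cell genes added Mzb1, a chaperone of antibody assembly. It rose by 1.93 ± 0.10 in bone marrow and 0.70 ± 0.10 in fetal liver (interaction -1.23 ± 0.14, adjusted p = 6.78e-05). Of 8 members tested 3 were lower and none higher (2.97% and 4.38% of all genes), Irf4 and Ighg being the others. The 2 probes of Ighg gave -1.62 and -0.04.

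The E protein inhibitors Id1 and Id3 had interactions of opposite sign, and both rose in fetal liver. Id1 rose in fetal liver by 1.38 ± 0.16 and was not called in bone marrow (0.29 ± 0.16), an interaction of 1.09 ± 0.22 (adjusted p = 0.00708). In bone marrow it was well above background on 1 of 4 Fr.A and 3 of 4 Fr.B/C arrays, so that change is limited by background. On the fetal liver arrays Id1 went from -0.29, -0.17, -0.23 and -0.24 to 0.89, 0.79, 1.68 and 1.21, whereas the highest bone marrow pro-B array was at 0.31. Id3 rose in both tissues, by 2.91 ± 0.20 in bone marrow and 1.73 ± 0.20 in fetal liver (interaction -1.18 ± 0.29, adjusted p = 0.0204). Its call was lost without bone marrow sort 4 (adjusted p = 0.0521) or fetal liver sort 3 or 4 (0.0591 and 0.0757). Of the 6 E protein and Id genes tested these 2 were called, against 7.35% of all genes tested.

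**Figure D4:**
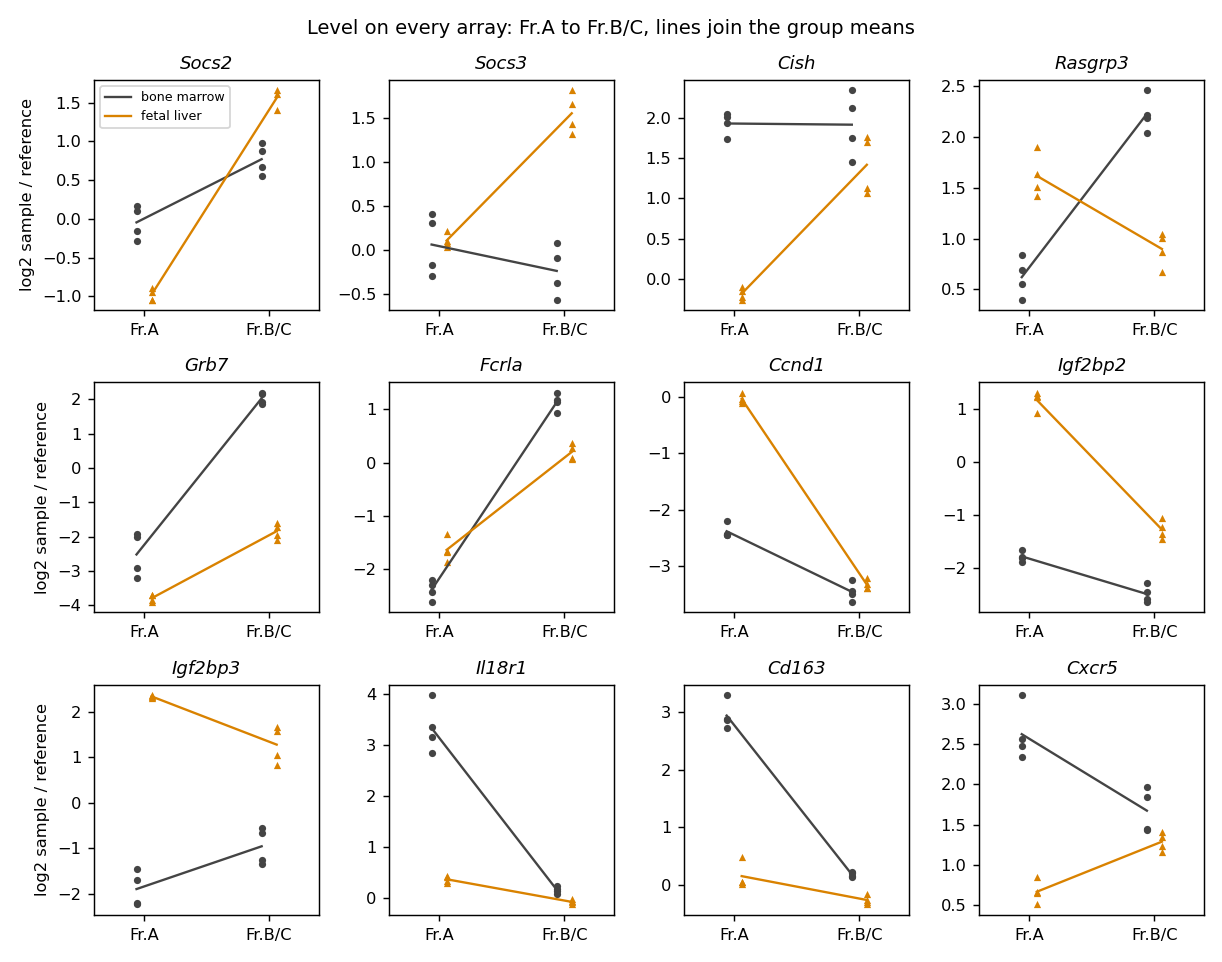
Log2 ratio of sample over reference on every array for 12 genes, in Fr.A and Fr.B/C of bone marrow (circles) and fetal liver (triangles), with lines joining the group means and a separate vertical scale for each gene. Lines of unlike slope show the interaction: for Rasgrp3 and Cxcr5 they have opposite directions, and for Il18r1 the fetal line starts near its end.

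Genes of the fetal program did not share 1 pattern. Of the 6 Lin28b-related genes, the list behind the series title, 1 had a higher and 2 a lower interaction. The shares over all genes tested were 4.38% and 2.97%. Lin28b itself changed by 0.26 ± 0.15 in fetal liver, not called, and no bone marrow array had it well above background (interaction 0.26 ± 0.22, adjusted p = 0.549). Its fetal sorts changed by 0.68, 0.40, -0.01 and -0.03. Arid3a fell in both tissues by like amounts (-1.14 ± 0.12 and -0.99 ± 0.12; interaction 0.15 ± 0.18, adjusted p = 0.707). Igf2bp1, also not well above background in bone marrow, had an interaction of 0.09 ± 0.20 (adjusted p = 0.847). For these 3 genes no difference in the step passed the test.

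The mRNA-binding proteins Igf2bp2 and Igf2bp3 lost part of their fetal excess. Igf2bp2 fell from 1.31, 0.92, 1.24 and 1.22 to -1.36, -1.46, -1.07 and -1.23 in fetal liver, and from a range of -1.89 to -1.66 to a range of -2.65 to -2.30 in bone marrow. Fetal liver stayed above bone marrow at both stages, by less in Fr.B/C. The changes were -2.45 ± 0.11 and -0.71 ± 0.11 (interaction -1.74 ± 0.16, adjusted p = 1.26e-05). Igf2bp3 rose in bone marrow by 0.94 ± 0.22 and fell in fetal liver by 1.06 ± 0.22 (interaction -2.00 ± 0.32, adjusted p = 0.00112), and its 3 probes gave interactions from -2.00 to -1.19. Hmga2 was called with 1.78 ± 0.28 (adjusted p = 0.00107), but its other probe gave -2.31 and the mean of its probes -0.26, so it has no settled direction here.

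Ccnd1, the cyclin D1 gene and a let-7 target, had the smallest adjusted p of the named genes. Fetal liver Fr.A arrays were at 0.07, -0.12, -0.04 and -0.07, far above bone marrow at -2.20, -2.42, -2.45 and -2.45. In Fr.B/C fetal liver had come down to -3.38, -3.38, -3.21 and -3.32, within the bone marrow range of -3.63 to -3.25 apart from array 3. The fetal excess seen in Fr.A was not seen in Fr.B/C. The changes were -3.28 ± 0.08 in fetal liver and -1.07 ± 0.08 in bone marrow (interaction -2.21 ± 0.11, adjusted p = 8.83e-08). Among all 38 let-7 targets tested, 3 were lower (Ccnd1, Igf2bp2 and Igf2bp3) and 1, Hmga2, was called higher (2.97% and 4.38% of all genes). Their median of 0.04 was equal to that of all genes.

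A few genes rose in fetal pro-B cells far more than in adult ones. Rpl39l, a paralogue of ribosomal protein L39, went from 2.49, 1.99, 2.58 and 2.41 to a range of 4.15 to 4.31 in fetal liver and stayed between 0.25 and 0.42 on all bone marrow arrays (interaction 1.83 ± 0.15, adjusted p = 3.46e-06; other probe 0.21). Pgm5, a phosphoglucomutase-like protein, rose by 3.84 ± 0.28 in fetal liver and 1.51 ± 0.28 in bone marrow (interaction 2.33 ± 0.39, adjusted p = 0.00175; other probe 0.44). The calcineurin subunit gene Ppp3cc rose by 1.87 ± 0.11 in fetal liver and was not called in bone marrow (0.27 ± 0.11), which brought it from 0.16 to 2.03 in fetal liver against 1.98 and 2.26 in bone marrow (group means; interaction 1.60 ± 0.15, adjusted p = 1.82e-05).

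Natural killer and innate lymphoid genes mostly fell in bone marrow (17 of 23), and 8 fell in fetal liver (18.7% and 12.7% of all genes). Of 23 tested, 11 had a higher interaction and 1, Serpinb6b, a lower (4.38% and 2.97% of all genes), with a median of 0.56. The list's mean level in bone marrow dropped from 0.43 to 0.75 over the Fr.A arrays to -0.80 to -0.67 in Fr.B/C, and in fetal liver from -0.41 to -0.39 down to -1.14 to -1.01. Fetal Fr.A thus started lower. No fetal Fr.A array was well above background for 4 of the 23 genes, among them the NK receptor Ncr1 and the transcription factor Eomes, and no fetal Fr.B/C array for 12. The part of other cell types in these interactions was not tested. With the array sets averaged 2 of the 11 passed.

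Il18r1, the interleukin 18 receptor, had the highest interaction of the named genes, 2.72 ± 0.23 (adjusted p = 8.13e-06). Its bone marrow ratios went from 3.35, 3.97, 3.16 and 2.83 to 0.19, 0.24, 0.15 and 0.09. In fetal liver they went from 0.43, 0.30, 0.42 and 0.34 to -0.12, -0.06, -0.02 and -0.08. Neither tissue's Fr.B/C arrays were above background, so bone marrow fell at least 8.36-fold and fetal liver changed by at least 1.15-fold, and the interaction itself has no bound. Measured above background on most arrays, the protease gene Ctsw fell by 3.80 ± 0.10 and 1.93 ± 0.10 (interaction 1.86 ± 0.14, adjusted p = 2.89e-06). The transcription factor Tbx21 fell by 0.92 in bone marrow, and its 0.15 in fetal liver was not called (interaction 1.08 ± 0.14, adjusted p = 0.00027), and Gata3 fell by 1.96 and 1.13 (0.83 ± 0.18, adjusted p = 0.012). Both were named after their values were seen.

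Some chemokine and adhesion genes fell more in bone marrow. Cxcr6, a receptor of innate and memory lymphocytes, fell in bone marrow from 0.56, 0.63, -0.20 and -0.16 to a range of -2.96 to -2.48, and in fetal liver moved from a range of -2.72 to -2.08 to one of -2.91 to -2.65 (interaction 2.56 ± 0.27, adjusted p = 4.01e-05). The fetal Fr.B/C arrays were not above background (at least 1.16-fold lower than Fr.A), and only 1 of 4 bone marrow Fr.B/C arrays was well above it. The chemokine Ccl5 fell by 3.08 ± 0.30 in bone marrow, while its -0.74 ± 0.30 in fetal liver was not called and, with no Fr.B/C array above background, stands for at least 1.51-fold (interaction 2.34 ± 0.43, adjusted p = 0.00343). Ccr6 fell by 2.63 ± 0.17 and 0.58 ± 0.17 (adjusted p = 6.96e-05), and the integrin Itgb7 by 3.93 ± 0.12 and 2.41 ± 0.12 (adjusted p = 5.08e-05). In all, 4 of 13 chemokine receptors were higher and 2 lower, as were 5 and 5 of 30 integrin and adhesion genes. The shares over all genes tested were 4.38% and 2.97%.

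T-lineage genes split, with 5 higher and 2 lower of 22 tested (4.38% and 2.97% of all genes). Cd6 (interaction 2.15 ± 0.17, adjusted p = 2.89e-06; other probe 0.22) and Cd7 (1.17 ± 0.20, adjusted p = 0.00181) fell in bone marrow, Cd6 with no called change in fetal liver. The T-cell receptor kinase Zap70 instead rose in bone marrow, from -1.99 to -0.69 in group means, with no called change in fetal liver, from -2.54 to -2.43 (interaction -1.19 ± 0.16, adjusted p = 0.000369). The mean level of the list fell in both tissues, from -1.51 to -1.40 down to -2.24 to -2.05 in bone marrow and from -2.08 to -1.89 down to -2.61 to -2.40 in fetal liver.

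Cd163, the haemoglobin scavenger receptor of macrophages, fell in bone marrow from 2.73, 3.30, 2.87 and 2.88 to 0.16, 0.14, 0.23 and 0.20. In fetal liver it moved from 0.49, 0.05, 0.02 and 0.05 to a range of -0.34 to -0.16 (interaction 2.35 ± 0.17, adjusted p = 2.89e-06). Only bone marrow Fr.A was high. Other macrophage genes did not share this. Of 16 tested, Cd163 was the 1 higher and the growth factor receptor Csf1r the 1 lower (4.38% and 2.97% of all genes). The mean of the list ran from 0.15 to 0.29 in bone marrow Fr.A and from 0.27 to 0.67 in fetal liver Fr.A. Genes of metabolism or unclear role with a like pattern were the choline dehydrogenase Chdh (-3.02 and -0.80; other probe with an interaction of 0.79), the copine Cpne2 (-2.08 and -0.09), Igfbp7 (-2.40 and -0.26) and Grtp1 (-2.08 and -0.06). No fetal Fr.B/C array had Chdh above background and no bone marrow Fr.B/C array Grtp1, so these falls are at least 1.71-fold and at least 4.06-fold. In Fr.B/C, Igfbp7 was well above background on 2 of 4 bone marrow and 1 of 4 fetal liver arrays.

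MHC class II genes had no common direction. Of 13 tested, 3 were higher and 1 lower (4.38% and 2.97% of all genes), at a median of -0.03. The invariant chain gene Cd74 fell by 1.73 ± 0.11 in bone marrow and 0.45 ± 0.11 in fetal liver (interaction 1.27 ± 0.15, adjusted p = 8.55e-05). The lysosomal reductase Ifi30 went the other way, rising by 2.60 ± 0.12 and 1.49 ± 0.12 (interaction -1.10 ± 0.16, adjusted p = 0.000646).

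Plasmacytoid dendritic cell genes gave 7 lower and 2 higher interactions of 20 tested (2.97% and 4.38% of all genes), at a median of -0.10. Their mean fell in bone marrow from 1.02 to 1.28 down to 0.05 to 0.28 and in fetal liver from 0.44 to 0.53 down to -0.89 to -0.72. Runx2, a transcription factor of these cells, went from 3.27, 3.42, 2.98 and 3.17 to -0.04, 0.06, 0.40 and 0.68 in bone marrow and from 3.43, 2.78, 3.77 and 3.70 to -2.04, -2.16, -1.43 and -1.38 in fetal liver. Both tissues overlapped in Fr.A and parted in Fr.B/C. The changes were -2.94 ± 0.23 and -5.17 ± 0.23 (interaction -2.24 ± 0.33, adjusted p = 0.000593; second probe -1.99). The homing receptor Ccr9 changed by -2.10 ± 0.14 and -3.75 ± 0.14 (adjusted p = 0.000135) and the transcription factor Irf8 by -0.51 ± 0.08 and -1.63 ± 0.08 (adjusted p = 3.42e-05).

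Cox6a2 and Cd7 were the members with a higher interaction. Cox6a2, a cytochrome c oxidase subunit of muscle that plasmacytoid dendritic cells also express, started alike at 1.65 to 2.33 in bone marrow and 2.23 to 2.50 in fetal liver. It ended at -3.50 to -2.39 and -0.37 to 0.02, so its fall was larger in bone marrow (-4.88 ± 0.22 against -2.58 ± 0.22; interaction 2.30 ± 0.31, adjusted p = 0.000269). The dendritic cell receptor gene Siglech, named after its values were seen and with no Fr.B/C array of either tissue above background, was called lower (-0.79 ± 0.18, adjusted p = 0.0149) without a bound, and Spib, which is also a B-lineage gene, rose in both. The part of dendritic cells in the sorts was not tested.

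Among myeloid and progenitor genes most calls were lower. Of 26 myeloid genes 4 were lower and none higher (median -0.04). Of 31 stem and progenitor genes 6 were lower and 2 higher (median -0.02), against 2.97% and 4.38% of all genes tested. Csf1r fell by 1.04 ± 0.13 and 2.62 ± 0.13 (interaction -1.58 ± 0.19, adjusted p = 8.55e-05), although its 3 probes gave from -1.58 to 0.06. The immunoglobulin Fc receptor Fcgr3 fell by 0.51 ± 0.13 and 1.48 ± 0.13 (adjusted p = 0.00452; second probe with an interaction of -1.55), and the Ets factor Spi1, which drives myeloid fate, by 0.25 ± 0.09 and 0.92 ± 0.09 (adjusted p = 0.0038). The mean of the myeloid list fell in bone marrow from 2.25 to 3.03 down to 1.66 to 2.28 and in fetal liver from 1.27 to 2.06 down to 0.51 to 1.20.

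Some genes fell mainly or wholly in fetal liver. Gimap6, a GTPase of lymphocyte survival, stayed between 3.73 and 4.28 on all bone marrow arrays and in fetal Fr.A lay between 3.53 and 3.95, but was at 1.86, 1.99, 1.73 and 1.73 in fetal Fr.B/C (interaction -2.01 ± 0.16, adjusted p = 3.41e-06). The caveolar protein gene Cavin2 was near background in bone marrow and fell by 2.09 ± 0.14 in fetal liver, to a level not above background (at least 4.26-fold). The apolipoprotein gene Apoe was level in bone marrow (-0.04 ± 0.18) and fell by 1.78 ± 0.18 in fetal liver (adjusted p = 0.000496). P2ry12, a purinergic receptor, fell by 1.20 and 3.24 (adjusted p = 2.94e-05), and the homeobox gene Nkx6-2, detected in fetal Fr.A only, fell at least 3.43-fold there. In Fr.B/C, P2ry12 was well above background on 3 of 4 bone marrow and 2 of 4 fetal liver arrays.

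Genes of opposite direction included lymphoid homing and traffic genes. Cxcr5, the B-cell follicle homing receptor, fell in bone marrow from 2.34, 2.48, 3.11 and 2.57 to 1.44, 1.45, 1.97 and 1.84 and rose in fetal liver from 0.85, 0.65, 0.66 and 0.51 to 1.24, 1.16, 1.41 and 1.35. The tissues approached each other without meeting. The changes were -0.95 ± 0.15 and 0.62 ± 0.15 (interaction 1.57 ± 0.21, adjusted p = 0.000324). The GTPase Rab19 fell by 0.84 ± 0.10 and rose by 0.95 ± 0.10 (adjusted p = 4.54e-06), and the integrin Itgb5 fell by 0.67 and rose by 0.40 (adjusted p = 0.00101). Of the reverse kind were Robo4 (0.87 ± 0.14 and -0.96 ± 0.14, adjusted p = 3.42e-05), a guidance receptor of endothelium and stem cells, and the small GTPase Rnd3 (0.25 ± 0.09 and -1.20 ± 0.09, adjusted p = 1.26e-05; second probe with an interaction of -0.48), whose fetal fall to background is at least 2.15-fold.

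Interferon response genes gave 9 lower and 3 higher interactions of 51 tested (2.97% and 4.38% of all genes), at a median of -0.22. The signalling factor Irf9 was not called in bone marrow (-0.13 ± 0.12) and fell by 1.33 ± 0.12 in fetal liver (adjusted p = 0.000421; second probe with an interaction of -0.14). Rtp4 fell by 0.50 and 1.65 (adjusted p = 0.00216), the GTPase Ifi47 by 0.53 and 1.46 (adjusted p = 0.00413), and the antiviral synthetase Oas1a changed by 0.21 and -0.78 (adjusted p = 0.000297). The 3 with a higher interaction were guanylate-binding proteins, named after their values were seen: Gbp2 (0.63), Gbp3 (1.01) and Gbp6 (0.59), with adjusted p = 0.0439, 0.00545 and 0.0416. No fetal liver array had Gbp6 above background. The receptor chain Ifnar1 changed by -0.02 in bone marrow and fell by 0.75 in fetal liver (interaction -0.72 ± 0.11, adjusted p = 0.00101).

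Of 41 mitotic genes 33 rose and none fell in bone marrow, while 16 rose and 1 fell in fetal liver (over all genes tested 13.5% and 9.95% rose). Of the 41, 7 had a lower interaction and none a higher (median -0.40), against 2.97% and 4.38% of all genes tested. With the array sets averaged 0 of the 7 passed limma's test, and the motor protein gene Kif11 and the separase gene Espl1 lost their call in 19 and 12 of the 24 fits without an array or a sort. Ube2c, a ubiquitin-conjugating enzyme of mitotic exit, rose by 1.11 ± 0.11 and 0.40 ± 0.11 (interaction -0.70 ± 0.16, adjusted p = 0.012), a call lost without bone marrow sort 4 (adjusted p = 0.055) or fetal liver sort 3 (adjusted p = 0.0607). The mean of the list rose from -0.88 to -0.66 up to -0.07 to 0.03 in bone marrow, and in fetal liver, which started higher, from -0.14 to -0.09 up to 0.07 to 0.36. S-phase genes gave 2 lower calls of 39 (5.13%, against 2.97% of all genes tested). These were Tk1 (-0.62, adjusted p = 0.00922) and Rfc3 (-0.51, adjusted p = 0.0337). The call of Rfc3 was lost in 16 of the 24 fits without an array or a sort.

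Of 28 erythroid, 40 oxidative phosphorylation, 44 ribosomal protein and 10 stromal and endothelial genes, limma called no interaction in the main analysis, against 7.35% of all genes tested. Erythroid genes differ in level between the tissues, at list means of 1.20 to 2.36 in fetal liver Fr.A and 0.54 to 0.63 in bone marrow Fr.A, and in Fr.B/C they were close to that (1.17 to 2.23 and 0.30 to 0.55). With the sort as a replicate block limma called 5 erythroid genes higher and 2 lower, and 1 oxidative phosphorylation gene higher and 4 lower. It also called 1 ribosomal protein gene lower and 2 stromal and endothelial genes higher. Of all 22091 genes the block fit called 1974 higher and 1621 lower. Glycolysis genes gave 1 call of 24, the lactate transporter Slc16a3, which fell by 1.02 ± 0.18 in bone marrow and was not called in fetal liver (0.35 ± 0.18; interaction 1.37 ± 0.25, adjusted p = 0.00359).

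**Figure D5:**
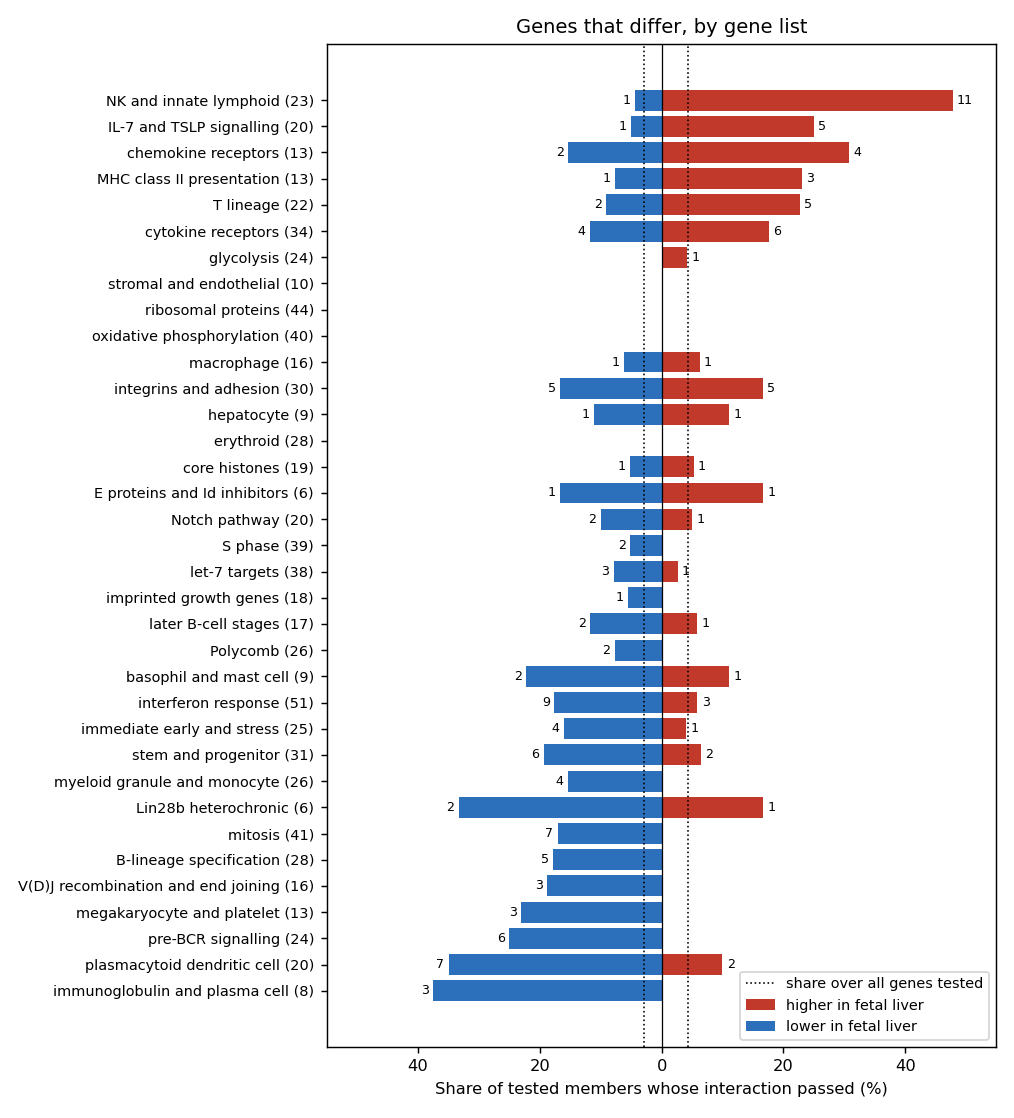
Share of the tested members of each of 35 gene lists whose interaction passed, higher in fetal liver to the right and lower to the left, with the number of genes at the end of each bar and the number tested in brackets. Dotted lines mark the shares over all genes tested, 4.38% and 2.97%, and lists share members.

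Promoter windows of the genes that differed were also searched for 4 further motifs on both strands. The interferon regulatory factor type GAAANNGAA was in 6.99% of the 429 promoters of genes with a higher interaction, 10.9% of the 396 with a lower and 8.8% of the 11173 tested. CCCNNGGG, of EBF type, was in 23.1%, 25% and 20.2%, the E-box CACGTG in 9.79%, 12.1% and 10.9%, and the cell cycle homology motif TTTGAA in 14.5%, 20.5% and 15.7%. Over all 27025 promoters of the table these motifs were in 9.76%, 15.4%, 8.09% and 20.2%. These shares are given without a test.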

How the data were processed

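Expression was measured in 16 samples (4 groups of 4) on 2-colour arrays. The authors deposited scanner files of Feature Extraction 8.5.1.1, which hold spot and background intensity of both dyes per the file headers, and a table of log2 ratios. How that table was made the sources do not state, beyond limma being named in the submitters' processing notes.

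Here intensities were corrected with normexp (offset 50), normalized by loess in limma 3.58.1 (R 4.3.3) and turned to log2 sample over reference. Control spots were left out, as were outlier spots, and saturated spots were kept. Probes well above background on at least 3 arrays of a group and with values on at least 12 arrays were kept (27522 of 41174), and the brightest stood for its gene. The offset lessens fold changes of dim genes. Of all probes, 27380 were named, mostly by RefSeq accession. In the lists, members not tested had no kept probe.

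A limma model with 4 group means and a dye term (11 residual degrees of freedom) gave stage changes and the interaction, with Benjamini-Hochberg adjustment over all genes tested at 0.05. Adjusted p-values are from this model unless another is named. "At least" folds set a group's mean against the lowest signal well above background, per channel, and are open to dye bias. The labels say that each sort gave both fractions. Same-numbered arrays of a tissue deviated together in all 8 sorts (correlations 0.25 to 0.519 over 21799 genes), so they were taken as a sort. The same number gave the highest correlation in 7 of the 8, while fetal liver Fr.A array 4 matched Fr.B/C array 3 best. Most same-numbered pairs were also scanned together. The fit was also run on simulated data, with noise independent between arrays. Real arrays of a set deviated together, so that run cannot show whether the calls hold.

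Genes named had a plain symbol, an interaction that passed, sorts that did not overlap and full detection in a group: the 12 highest and 12 lowest and 4 per class of change. From each gene list, up to 4 members of smallest adjusted p were added without the last 2 conditions, and 12 genes were always given. The text uses part of them. The question, gene lists and rules were chosen with earlier results of these data known. Some results are not reported here.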

Additional observations from a re-analysis of the deposited data

Results flagged for a closer look

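The stage change differed between the tissues by a test of the difference itself in 1623 genes, 69 of them with called changes of opposite direction. The 124 genes of the naming rule in both tissues made 248 groups of sorts. Of these, 6 held a sort far from the other 3, where chance flags about 1 in 20. Groups with only 3 sorts could not be flagged (Dntt in bone marrow, and Il7r, Socs2 and Spib in fetal liver). In bone marrow these were sort 4 of Fcmr (a change of 2.16 against 1.86 to 1.90), sort 2 of H2-Eb1 (-1.85 against -1.70 to -1.68; its interaction of 1.01 lost its call in 9 of the 24 fits without an array or a sort) and sort 3 of the granule protease Prtn3 (-0.49 against 0.00 to 0.06). In fetal liver they were sort 1 of Id3 (1.98 against 1.65 in each other sort), sort 2 of Rag2 (-0.29 against -0.53 to -0.50) and sort 2 of Rpl39l (2.21 against 1.71 to 1.74).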

How the results depend on the processing

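Of the 116 named genes with a call, 84 kept it in all 24 fits without an array or a sort, and Ccnd1, Cd163, Fcmr, Rasgrp3 and Rpl39l kept it in all 46 fits. The interaction passed in 3595 genes with the replicate block, 43 with array sets averaged, 389 with these paired by set (added after seeing the data), 496 with sets as a random block, 1074 on processed signals, 424 with median centring and 916 with scaling. It passed in 28 with Cy5 alone, 10 with Cy3 alone, 712 on arrays 1 and 2, 6919 on arrays 3 and 4, 2976 with scan session as a random block and 3282 with it as a fixed block (added). Without single arrays or sorts the count ran from 945 to 1682. Stage changes in bone marrow numbered 7117, and 3310 with sets averaged, 4590 with sets as a random block, 4161 with median centring and 2698 with either dye. In fetal liver they numbered 5005, and 1793, 2972, 2681, 1695 (Cy5), 1292 (Cy3) and 9336 (arrays 3 and 4). Of calls, 59.6% were higher in fetal liver, and 30% of the 10 with Cy3 alone. Signs turned for Hmga2 (mean of probes, -0.26), Dlk1 (processed signals, 0.59) and Itgax (processed signals 1.15, deposited ratios 0.31), and, among genes never called in the main analysis, for Arid3a (Cy5, -0.02), Dntt (Cy5 0.47, fixed session block 0.26, mean of probes 0.07, without single arrays or sorts -0.89 to 0.16), Igf2bp1 (deposited ratios -0.03, processed signals -0.04, offset 16 -0.04, median centring -0.06, arrays 1 and 2 and the fixed session block each just below 0, without single arrays or sorts -0.03 to 0.18) and Il7r (Cy5 0.06, without single arrays or sorts -0.33 to 0.09). The cause was not tested. Dye-alone fits and fits on a single set hold fewer arrays, and their interaction counts lay both below and above that of the main analysis. Dim genes are limited by signal over background. Some genes not called in the main analysis passed limma's test in another fit, among them Ebf1 and Il7r (lowest adjusted p = 0.0393 and 0.0272).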
